A study of Mus musculus with 12 samples.

Results

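S100a8, S100a9, Csf3r, Cxcr2, Trem1, Retnlg, Lcn2 and Ngp are genes that neutrophils transcribe, and their levels are described here in tumors grown from Ras-transformed mouse cells. The 8 genes were taken by symbol from a list, out of 19938 genes that a mouse array measured under a single symbol, and each had 1 probeset (the group of array probes that reads a gene). The arrays measured RNA of 12 subcutaneous tumors. They fall into 3 groups of 4, VR, VdR and R, with the tumors numbered 1, 2, 4 and 5 in every group. All derive from J2A, a myofibroblast line from C57BL/6 mice that lack p16, p19 and Vnn1, so the grafted cells of the R tumors lack Vnn1 too. Every line carries oncogenic H-RasV12 from a retroviral vector. VR cells also carry Vnn1, which codes for the pantetheinase vanin-1, VdR cells carry a catalytically deficient Vnn1, and R cells carry Ras without Vnn1. The cells were grafted under the skin of the back of female nude mice on a normal diet. By the labels the tumors were harvested after 2 to 3 weeks, by their growth. The study's methods instead give a single harvest day for the array tumors, at the end of that range. Nude mice lack mature T cells but have neutrophils and macrophages of their own. The 4 tumors of a group are grafts of 1 transduced line and do not repeat the transduction. According to the study's methods the RNA came from the whole tumor, although the extraction text of the labels speaks of sorted cells. In such bulk RNA, fewer cells of a type and less RNA per cell cannot be told apart.

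Neutrophils are short-lived granulocytes made in the bone marrow under the cytokine G-CSF, whose receptor is Csf3r. They leave the marrow and enter inflamed or tumor tissue along gradients of chemokines that bind Cxcr2. Granule proteins such as those of Ngp and Lcn2 are made mainly by marrow precursors, whereas S100a8 and S100a9, which form the alarmin calprotectin, and Retnlg, a resistin-like secreted protein, remain abundant in mature blood neutrophils. Trem1 is a surface receptor that amplifies inflammatory signaling through the adaptor Tyrobp. Csf3r and Trem1 are also found on monocytes and macrophages, and Lcn2, an iron-siderophore-binding lipocalin, is also made by epithelial cells.

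C/EBP factors and PU.1 are transcription factors of the granulocyte lineage, and their motifs were searched in the promoters of the 8 genes (RefSeq, mouse build GRCm38.p6, from 250 bases before to 50 bases after the gene start). The motif TTNCNNAA was used for C/EBP and GAGGAA for PU.1, on both strands, and the matches of the 2 motifs did not share a base. A C/EBP match was found in 6 of the 8 promoters and a PU.1 match in 5, and 40.7% and 28.3% of all 32851 promoters of the same length hold them. A match describes the letters only. 3 promoters are shown 5′ to 3′ on the strand of the gene, with matches in capitals: that of Csf3r (chr4:126024409-126024708, plus strand), the gene that differed between groups, that of Lcn2 (chr2:32387690-32387989, minus strand), the gene that stood out in single tumors, and that of Ngp (chr9:110419558-110419857, plus strand), with the most C/EBP matches of the 8 and little variation between tumors. Csf3r holds a PU.1 match 86 bases before the start. Lcn2 holds a C/EBP match 216 bases and a PU.1 match 20 bases before it. Ngp holds 3 C/EBP matches, 138, 102 and 11 bases before it.
Csf3r: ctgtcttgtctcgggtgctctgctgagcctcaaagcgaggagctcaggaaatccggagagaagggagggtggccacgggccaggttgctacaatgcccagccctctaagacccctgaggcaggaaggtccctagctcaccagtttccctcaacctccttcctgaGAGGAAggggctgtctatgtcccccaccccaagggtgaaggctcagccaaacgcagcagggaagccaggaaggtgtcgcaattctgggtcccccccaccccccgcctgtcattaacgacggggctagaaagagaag
Lcn2: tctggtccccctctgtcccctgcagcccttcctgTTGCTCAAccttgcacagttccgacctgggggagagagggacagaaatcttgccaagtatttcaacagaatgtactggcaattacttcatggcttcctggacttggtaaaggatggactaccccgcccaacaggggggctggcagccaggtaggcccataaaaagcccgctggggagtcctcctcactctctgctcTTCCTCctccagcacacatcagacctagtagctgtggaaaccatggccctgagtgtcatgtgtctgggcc
Ngp: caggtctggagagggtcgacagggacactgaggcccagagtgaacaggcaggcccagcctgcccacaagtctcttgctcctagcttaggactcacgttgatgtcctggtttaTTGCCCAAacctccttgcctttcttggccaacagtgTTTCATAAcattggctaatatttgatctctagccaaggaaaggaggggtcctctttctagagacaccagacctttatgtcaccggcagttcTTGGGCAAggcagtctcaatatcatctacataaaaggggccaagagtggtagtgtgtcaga

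The values are log2 expression, normalized over all arrays together, so 1 unit is a 2-fold difference on this scale. The medians of the arrays lay between 6.66 and 6.77. The 16573 genes with a value over 5.38 on 4 or more arrays were tested, and 25 percent of the deposited values lie under that limit. Vnn1, read as a check of the labels, had 11.26, 10.54, 11.06 and 10.64 in the VR tumors, 11.37, 11.49, 11.66 and 11.73 in the VdR tumors and 5.70, 5.53, 5.75 and 5.83 in the R tumors, as the labels require.

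Of the 8 genes, 4 lay too low to be tested. S100a9, Csf3r, Trem1 and Lcn2 passed the filter, in all 12 arrays. S100a8, Cxcr2 and Retnlg were above 5.38 in 0 arrays and Ngp in 3, so these 4 were not tested. Over the 12 tumors, the distance between the highest and the lowest value was under 0.5 for 5 of the 8 genes, near the share among all 19938 genes, 67.0%. It was smallest for Retnlg, 0.17, and was 1.25 for Csf3r and 4.18 for Lcn2.

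**Figure D1:**
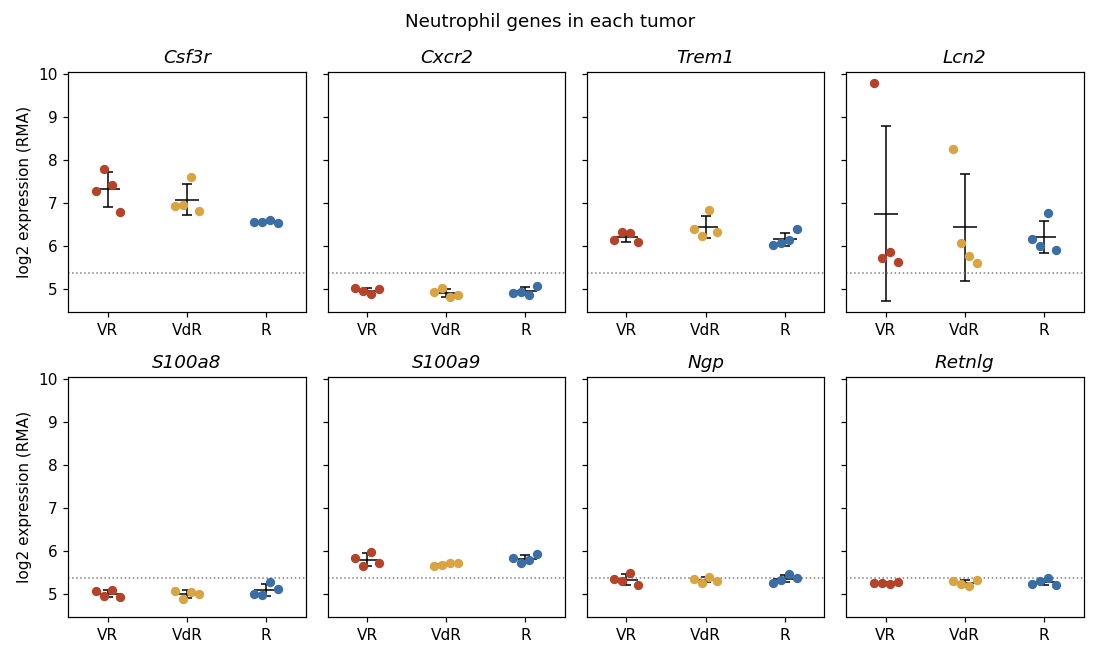
Log2 expression of each of the 8 neutrophil genes (vertical axis, log2 units) in VR, VdR and R tumors, 4 per group. Points are tumors, bars are the mean ± SD, and the dotted line is the filter at 5.38. Csf3r lies higher in all VR and VdR tumors than in the R tumors, Lcn2 is high in 1 VR and 1 VdR tumor, and S100a8, Cxcr2 and Retnlg stay under the line in all 12.

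Between VR and R tumors, 1 of the 4 tested genes, Csf3r, was called higher and 0 were called lower (limma with Benjamini-Hochberg adjustment over 16573 genes, adjusted p under 0.05). Over all genes tested, 13.6% were called higher and 7.48% lower in VR tumors, and 1 in 4 is too small a count to set against these shares. Between VdR and R tumors 0 of the 4 were called by limma, against 6.58% of all genes called higher and 2.81% lower. Csf3r and Trem1 had an unadjusted p under 0.05 there, as did 2497 genes higher and 1339 lower of all 16573 (limma). The methods' t-test, the test the study names for its qRT-PCR, also called 0. Between VR and VdR tumors 0 were called by limma, against 1.77% higher and 1.67% lower over all genes, and 0 by the methods' t-test. The unadjusted limma p was under 0.05 for 0 of the 4, against 1645 genes higher and 1537 lower over all genes. In VR against R it was so for 3407 genes higher and 2365 lower. For VR against R, VdR against R and VR against VdR, the 4 tested genes had median log2 differences of 0.30, 0.25 and 0.17. Over all genes tested the medians were -0.01, 0.00 and -0.02, and 4 genes are too few to set against these. Over all 8 genes, of which 4 lay too low to be tested, the medians were 0.00, -0.02 and 0.03. The comparisons with R share the same 4 R tumors.

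Csf3r, the G-CSF receptor, had log2 values of 7.27, 7.79, 7.42 and 6.80 in VR tumors 1, 2, 4 and 5, 6.93, 6.95, 7.61 and 6.83 in the VdR tumors and 6.56, 6.55, 6.60 and 6.53 in the R tumors. VR 2 and VdR 4 were highest, and every VR and every VdR tumor lay above every R tumor, whereas the VR and VdR tumors overlapped. It was the only gene of the 4 whose groups did not overlap, in VR against R and in VdR against R. Over all genes tested, 15.3% lay higher and 10.5% lower without overlap in VR against R, 9.73% and 4.5% in VdR against R, and 5.88% and 6.77% in VR against VdR.

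Csf3r averaged 7.32 ± 0.41 in VR tumors and 6.56 ± 0.029 in R tumors (SD, n = 4 each), a log2 difference of 0.76 (95% confidence interval 0.33 to 1.18, limma adjusted p = 0.0159), or 1.69-fold. It averaged 7.08 ± 0.36 in VdR tumors (SD, n = 4), 0.52 above R (0.095 to 0.94, limma adjusted p = 0.125), which did not pass. VR exceeded VdR by 0.24 (-0.18 to 0.66, limma adjusted p = 0.558). In the order VR, VdR, R, only VR over R passed the adjusted test. The R tumors had the smallest SD of the groups. Their values, 6.53 to 6.60, lay under the medians of the arrays, so the small SD cannot be read as uniform tumors. The call for VR was lost under the methods' t-test (adjusted p = 0.0637), and without VdR 4 the difference of VdR from R was 0.34 (limma adjusted p = 0.26).

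**Figure D2:**
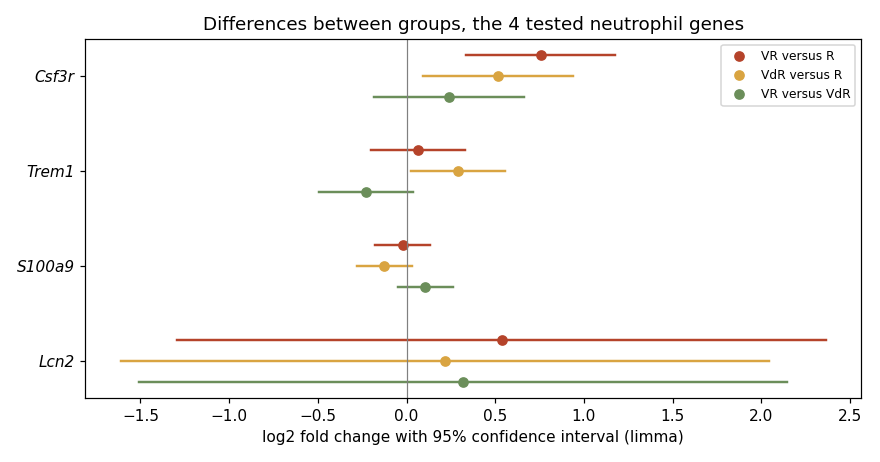
Log2 fold change (horizontal axis) of the 4 tested neutrophil genes for VR against R, VdR against R and VR against VdR, with 95% confidence intervals from limma. For Csf3r the intervals of VR and VdR against R exclude 0, for Trem1 that of VdR against R does, and the intervals of Lcn2 run over more than 3 log2 units.

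Trem1, the Tyrobp-coupled activating receptor, had log2 values of 6.13, 6.33, 6.31 and 6.10 in the VR tumors, 6.39, 6.23, 6.83 and 6.34 in the VdR tumors and 6.03, 6.06, 6.14 and 6.39 in the R tumors. VdR 4, high for Csf3r, was highest here too, and all 3 groups overlapped. The log2 difference was 0.063 for VR against R (95% confidence interval -0.20 to 0.33, limma adjusted p = 0.728), 0.29 for VdR against R (0.028 to 0.56, limma adjusted p = 0.167) and -0.23 for VR against VdR (-0.49 to 0.035, limma adjusted p = 0.34). With array weights, which give less weight to arrays far from their group, VdR against R was 0.34 and passed (limma adjusted p = 0.0418). Over the 12 tumors Trem1 and Csf3r correlated at 0.56 (Pearson), and at 0.72 after the group means were taken out, as a description.

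Cxcr2, the receptor for neutrophil-attracting CXC chemokines, had log2 values of 5.02, 4.96, 4.88 and 4.99 in the VR tumors, 4.94, 5.02, 4.83 and 4.85 in the VdR tumors and 4.90, 4.94, 4.86 and 5.08 in the R tumors. The groups overlapped and no tumor stood out. No ligand gene of Csf3r or Cxcr2 passed the test. Csf3, which codes for G-CSF and so for the ligand of Csf3r, differed by -0.20 between VR and R (limma adjusted p = 0.142) and by -0.13 between VdR and R (limma adjusted p = 0.434). Cxcl1, Cxcl3 and Cxcl5 differed from R by -0.09 to 0.21 (limma adjusted p from 0.409 to 0.941), and Cxcl2 did not pass the filter. Ppbp, a platelet chemokine that also binds Cxcr2, had 6.31, 6.83, 7.11 and 7.54 in the VR tumors, 6.21, 5.99, 6.16 and 6.31 in the VdR tumors and 6.33, 6.76, 6.27 and 6.02 in the R tumors. VR 4 and VR 5 lay above all other tumors, and neither VR against R (0.60, limma adjusted p = 0.0694) nor VR against VdR (0.79, limma adjusted p = 0.0692) passed.

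The alarmin genes S100a8 and S100a9 showed no difference that passed the test, and only S100a9 was tested. S100a9 had log2 values of 5.86, 5.66, 5.98 and 5.73 in the VR tumors, 5.67, 5.69, 5.72 and 5.73 in the VdR tumors and 5.85, 5.72, 5.80 and 5.94 in the R tumors. S100a8, the other chain of calprotectin, had 5.07, 4.96, 5.09 and 4.94 in the VR tumors, 5.09, 4.88, 5.06 and 5.00 in the VdR tumors and 5.01, 4.98, 5.29 and 5.13 in the R tumors. The groups overlapped for both genes. For S100a9 the log2 difference was -0.020 between VR and R (95% confidence interval -0.18 to 0.14, limma adjusted p = 0.857), -0.13 between VdR and R (-0.28 to 0.030, limma adjusted p = 0.329) and 0.11 between VR and VdR (-0.050 to 0.26, limma adjusted p = 0.468). Each of these intervals lies within 0.3 log2 units of 0. S100a9 lay at 5.66 to 5.98, under the medians of the arrays, so a narrow interval there cannot be read as no change. Of the receptors of calprotectin, Tlr4 was higher in VR and in VdR than in R tumors, as given below, and Ager differed from R by -0.01 and 0.03 (limma adjusted p = 0.913 and 0.872).

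Of the genes for secreted and granule proteins, Ngp, which codes for neutrophilic granule protein, had log2 values of 5.34, 5.30, 5.50 and 5.22 in the VR tumors, 5.36, 5.27, 5.40 and 5.32 in the VdR tumors and 5.27, 5.32, 5.46 and 5.38 in the R tumors. Tumor 4 was highest in each group, and the groups overlapped. Retnlg had 5.26, 5.26, 5.25 and 5.29 in the VR tumors, 5.31, 5.24, 5.20 and 5.32 in the VdR tumors and 5.24, 5.30, 5.37 and 5.23 in the R tumors, also with overlap. The log2 differences between groups of the 4 genes that did not pass the filter lay between -0.095 and 0.057, and without the filter their limma adjusted p lay between 0.43 and 0.992. Among the 8 genes S100a8 and Ngp correlated most, at 0.78 over the 12 tumors (Pearson, a description), in values that span under 0.5 log2 units and share the arrays.

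Lcn2 stood apart. Its log2 values were 9.80, 5.73, 5.85 and 5.62 in VR tumors 1, 2, 4 and 5, 8.27, 6.07, 5.78 and 5.62 in the VdR tumors and 6.17, 6.01, 6.76 and 5.92 in the R tumors. VR 1 and VdR 1 were far above all other tumors, and the other VR tumors lay below all R tumors. The log2 difference was 0.54 for VR against R (95% confidence interval -1.29 to 2.36, limma adjusted p = 0.666), 0.22 for VdR against R (-1.61 to 2.05, limma adjusted p = 0.913) and 0.32 for VR against VdR (limma adjusted p = 0.879). Without VR 1 and VdR 1, an alternative added after the values were seen, the same differences were -0.48 (limma adjusted p = 0.0997), -0.39 (limma adjusted p = 0.251) and -0.087 (limma adjusted p = 0.901). Csf3r kept its call without them, at 0.77 for VR against R (limma adjusted p = 0.0405).

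Many genes of epithelium and some of milk were highest in the same tumors. Of the 16573 genes that passed the filter, Lcn2 and Chil1, a secreted chitinase-like protein, were the only genes at least 1 log2 unit above the other 3 tumors of the group in both VR 1 and VdR 1. Without the filter the casein gene Csn3 joined them. 15 genes of simple epithelia and 8 milk protein genes, of which 7 were measured, were listed after these values were seen, so no test was made. Epcam, St14, Krt18, Krt8, Krt19 and Rab25 of the epithelial list are also among the genes most like Lcn2 or the mean of the 8 neutrophil genes. Their high values in VR 1 and VdR 1 are therefore no separate result. All 15 epithelial genes were highest in VR 1 among the VR tumors and in VdR 1 among the VdR tumors, and 6 of the 7 milk genes were. Above all 10 other tumors in both VR 1 and VdR 1 lay 10 of the 15 and 5 of the 7, but not Cdh1, Cldn3, Cldn4, Cldn7, Elf3, Csn1s2a and Csn1s2b. Only 2 of the 7 milk genes, Csn2 and Wap, passed the filter, and the mean below covers all 7. In VdR 1, Csn2 (5.49) and Wfdc18 (5.28) lay barely above R 1 (5.47 and 5.22), the highest of the other tumors. The mean of the epithelial genes was 6.87 in VR 1, 6.77 in VdR 1 and 6.18 to 6.48 in the other 10 tumors. The mean of the milk genes was 8.63 in VR 1, 5.82 in VdR 1 and 5.15 to 5.33 in the others. Csn1s1, a milk casein, had 11.53 in VR 1, 5.71 in VdR 1 and 4.91 to 5.04 elsewhere, and Csn3 had 9.48, 7.70 and 4.68 to 5.34. The casein genes Csn1s2a and Csn2 were high in VR 1 alone, with 10.49 and 11.08, against 4.64 and 5.49 in VdR 1, and Csn1s2b was high in neither, at 5.09 in VR 1 and 5.22 in VdR 1. Epcam, an epithelial adhesion protein, had 7.20 in VR 1, 6.25 in VdR 1 and 5.48 to 5.68 elsewhere. Markers of keratinocytes, the epithelial cells of skin, did not separate these tumors so far, with a mean of 6.02 in VR 1, 6.04 in VdR 1 and 5.88 to 6.03 in the others. Of these 13 markers, listed beforehand, 3 were highest both in VR 1 among the VR tumors and in VdR 1 among the VdR tumors. Ltf, the iron-binding granule and milk protein lactoferrin, had 6.76 in VR 1, 5.73 in VdR 1 and 5.43 to 5.64 elsewhere. The part of epithelial or milk gland RNA in the Lcn2 values was not tested.

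**Figure D3:**
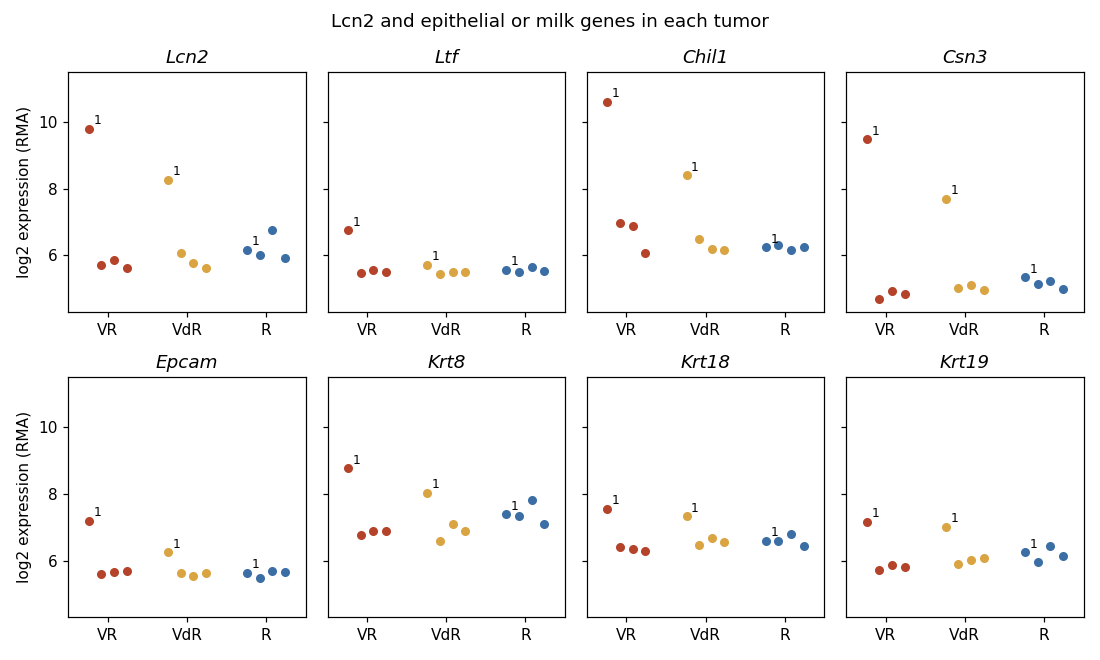
Log2 expression (vertical axis, log2 units) of Lcn2, the granule and milk gene Ltf, and genes of epithelium and milk in VR, VdR and R tumors, 4 points per group, with tumor 1 of each group marked. All 8 genes are highest in tumor 1 within the VR group and within the VdR group, and in the R group tumor 1 is not apart.

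The unscaled mean of the 8 neutrophil genes mainly follows Lcn2, which spans 4.18 log2 units against at most 1.25 for the others. Over the 12 tumors, the tested genes most like this mean were Chil1, Epcam, St14, an epithelial protease gene, Krt18, a keratin gene, and Fxyd2. Their Pearson correlations with the mean were 0.93, 0.90, 0.89, 0.88 and 0.87, and Fxyd2 codes for a subunit that modulates the sodium pump. Over the 10 tumors other than VR 1 and VdR 1 the same correlations were 0.41, 0.10, 0.36, 0.29 and 0.68. With group means taken out, the keratin genes Krt18, Krt5, Krt8 and Krt19 and Chil1 led, at 0.91 to 0.94 over 12 tumors. Over the 10 tumors the same correlations were 0.66 to 0.74. The group means taken out included VR 1 and VdR 1, so these correlations still carry both tumors. The points share the arrays, and Lcn2 has the widest range of the 8. Lcn2 itself correlated with each of the other listed genes at only -0.18 to 0.29 (Pearson). The genes most like Csf3r, looked up after its values were seen, were Traf3ip3, Tapbp, which codes for the MHC class I loading factor tapasin, and Uba7, the enzyme that activates the ubiquitin-like protein ISG15, at 0.95, 0.94 and 0.94. For these the correlation without VR 1 and VdR 1 was 0.97, 0.97 and 0.96.

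Other genes of neutrophils were read from lists by role. Their counts stand beside the shares over all genes tested, 13.6% higher and 7.48% lower in VR against R. The shares were 6.58% and 2.81% in VdR against R, and 1.77% and 1.67% in VR against VdR. Counts at an unadjusted p under 0.05 stand beside those over all genes, given above. Of 19 other surface receptors, 15 were measured and 13 tested, and relative to R the VR tumors had 5 of them higher and 0 lower. The same 5 were higher in VdR. Those were Itgam and Itgb2, the chains of the integrin CD11b/CD18, Selplg, the selectin ligand PSGL-1, C5ar1, the receptor for complement C5a, and Fcgr3, an Fc receptor, all of which macrophages or monocytes also carry. Itgam had 9.45, 9.29, 9.18 and 9.06 in the VR tumors, 9.41, 9.59, 9.82 and 9.24 in the VdR tumors and 7.87, 8.31, 7.38 and 7.58 in the R tumors. It was higher by 1.46 in VR (limma adjusted p = 2.87e-04) and by 1.73 in VdR tumors (limma adjusted p = 1.57e-04) than in R, with no overlap. Between VR and VdR 0 of the 13 were called by limma, with 3 at an unadjusted p under 0.05. The median log2 difference of the 13 was 0.21 for VR and 0.04 for VdR against R.

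Receptors that mark neutrophils more narrowly were not called where they were tested. Ly6g, the antigen by which mouse neutrophils are sorted, did not pass the filter and so was not tested. It lay at 4.99 to 5.13 in VR, 5.09 to 5.17 in VdR and 4.96 to 5.07 in R tumors. Every VdR tumor thus lay above every R tumor, as for 9.73% of all genes tested, but at values under the filter. Cd177, a neutrophil surface antigen, lay at 6.65 to 6.83 in VR, 6.64 to 6.84 in VdR and 6.72 to 6.83 in R tumors (log2 difference -0.04 for VR and 0.00 for VdR against R, limma adjusted p = 0.665 and 0.978). Cxcr1, the other receptor of CXC chemokines on neutrophils, differed by -0.12 and -0.04 (limma adjusted p = 0.218 and 0.815).

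Granule and cytosol genes gave 2 higher and 1 lower of 18 tested, of 22 measured and 25 listed, in VR against R, and 1 higher and 0 lower in VdR against R. Lyz2, the lysozyme gene, which macrophages also transcribe strongly, was higher in both, by 0.75 and 0.70 (limma adjusted p = 2.38e-04 and 4.89e-04). Pglyrp1, a granule peptidoglycan recognition protein and a ligand of Trem1, was called higher in VR, by 0.47 (limma adjusted p = 0.0201), against 0.13 in VdR (limma adjusted p = 0.589), and the difference between VR and VdR, 0.34, did not pass (limma adjusted p = 0.165). Anxa1, which codes for annexin A1, was lower in VR, with a log2 difference of -0.20 (limma adjusted p = 0.0331). Between VR and VdR 0 of the 18 were called by limma, with 2 at an unadjusted p under 0.05. The medians were -0.06 for VR and -0.02 for VdR against R. The counts of genes called were near the shares over all genes tested, so they are not read as a result about the list.

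The primary granule genes Elane, for neutrophil elastase, and Mpo, for myeloperoxidase, did not pass. Elane lay at 5.88 to 6.09 in VR, 6.01 to 6.20 in VdR and 6.01 to 6.10 in R tumors, with log2 differences from R of -0.04 and 0.05 (limma adjusted p = 0.687 and 0.716). Mpo lay at 5.84 to 6.09 in VR, 5.82 to 6.08 in VdR and 5.80 to 6.21 in R tumors, with differences of -0.04 and -0.12 (limma adjusted p = 0.743 and 0.491). Camp, the cathelicidin gene, differed from R by -0.13 in VR and -0.09 in VdR tumors (limma adjusted p = 0.123 and 0.382). Mmp8, neutrophil collagenase, did not pass the filter. Mmp9, a gelatinase of neutrophils and of many stromal cells, differed by -0.08 in VR (limma adjusted p = 0.733) and by 0.53 in VdR tumors (limma adjusted p = 0.0507).

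Of the ligands and partners of the receptors and alarmins, all 20 listed were measured and 15 tested, and 4 were higher in VR and 3 in VdR than in R tumors, with 0 lower. Tyrobp, the adaptor of Trem1 and of many macrophage receptors, was higher by 1.06 in VR and by 1.19 in VdR tumors (limma adjusted p = 4.95e-04 and 3.57e-04). Tlr4 was higher by 0.59 and 0.36 (limma adjusted p = 3.71e-04 and 0.0106), and the cytokine gene Tnf by 0.48 and 0.51 (limma adjusted p = 0.0284 and 0.0376). Pglyrp1 is the fourth in VR. Slc22a17, a receptor for lipocalin-2, differed by 0.05 and 0.21 (limma adjusted p = 0.792 and 0.303). The medians of the list were 0.05 and -0.02. Between VR and VdR 0 were called by limma, with 3 at an unadjusted p under 0.05.

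The phagocyte oxidase, the complex that makes superoxide in neutrophils and macrophages, was read from a list of its subunits. All 5 tested subunit genes, of 6 listed, were higher in VR and in VdR than in R tumors, with medians of 0.91 and 1.13. Cybb, the catalytic subunit, was higher by 1.49 and 1.12 (limma adjusted p = 8.11e-04 and 0.00718), and Ncf1 by 1.21 and 1.22 (limma adjusted p = 6.21e-05 and 6.45e-05). Between VR and VdR 0 of the 5 were called by limma, with 2 at an unadjusted p under 0.05.

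Among 9 transcription factors of granulocytes, Spi1, which codes for PU.1, Cebpa, Lyl1 and Irf8 were higher in VR and in VdR than in R tumors. Spi1 was higher by 1.11 and 1.05 (limma adjusted p = 4.06e-04 and 8.63e-04), and Cebpa by 0.68 and 0.59 (limma adjusted p = 0.00272 and 0.0116). Irf8, which favors monocytes over granulocytes in development, was higher by 0.92 and 0.62 (limma adjusted p = 5.03e-04 and 0.00836). Cebpe, required for the late granule genes, differed by 0.04 and 0.11 (limma adjusted p = 0.724 and 0.414). Cebpb was lower in VR, with a log2 difference of -0.58 (limma adjusted p = 0.00525). Gfi1, which favors the granulocyte fate, had a log2 difference of -0.41 between VR and VdR (limma adjusted p = 0.0291), at 6.43 to 6.76 in VR and 6.98 to 7.20 in VdR tumors.

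**Figure D4:**
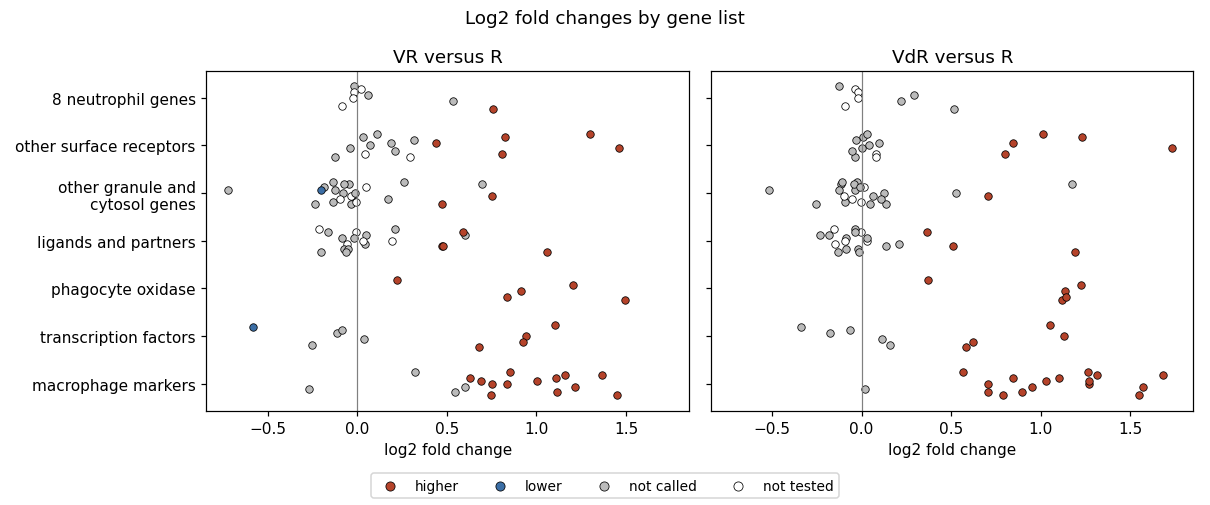
Log2 fold changes (horizontal axes) of VR against R and of VdR against R for the 8 neutrophil genes and 6 gene lists, 1 point per gene, with the vertical position inside a list arbitrary. Red and blue points were called higher and lower by limma, grey points were not called and white points did not pass the filter. The oxidase and macrophage lists lie mostly right of 0, whereas most of the 8 neutrophil genes and the other granule genes lie near 0.

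Macrophage markers also differed between the tumors. Of 18 listed, 17 were measured and tested, and 13 were higher in VR and 16 in VdR than in R tumors, with 0 lower and medians of 0.84 and 1.03. Their mean per tumor was 10.03 to 10.24 in VR, 10.15 to 10.48 in VdR and 9.15 to 9.43 in R tumors, and all 17 passed the filter. Adgre1, the gene of the pan-macrophage antigen of mice, was higher by 1.45 and 1.55 (limma adjusted p = 4.64e-05 and 4.31e-05), and Csf1r, the macrophage growth factor receptor, by 1.16 and 1.31 (limma adjusted p = 5.06e-05 and 4.31e-05). VdR 4 had the highest macrophage mean of the 12 tumors and VR 2 the highest of the VR tumors, the same tumors in which Csf3r was highest. Within the VR tumors the order was not the same throughout, since VR 1 had a higher macrophage mean than VR 4 and a lower Csf3r value. The part of macrophages and monocytes in the Csf3r difference was not tested.

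**Figure D5:**
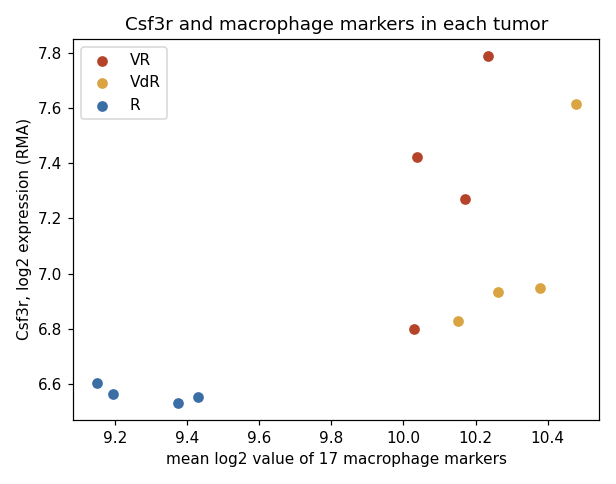
Log2 expression of Csf3r (vertical axis) against the mean log2 value of 17 macrophage markers (horizontal axis), 1 point per tumor, for VR, VdR and R tumors, 4 each. R tumors sit at 9.15 to 9.43 on the horizontal axis with Csf3r at 6.53 to 6.60, and all VR and VdR tumors lie right of and above them.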

How the data were processed

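RNA of 12 tumors was hybridised to Affymetrix mouse gene arrays. The authors deposited RMA values, on a log2 scale and 1 per probeset, made with the oligo package (per the submitters' processing notes, with no version). Background had been corrected, arrays quantile-normalized and probes summarized by then. RMA puts all arrays on one distribution, and an overall change in RNA content between groups is not seen. No detection call comes with the values. The number of arrays limits the precision. The platform annotation gives a single gene symbol for 21789 of the 35556 probesets, several for 1621 and none for 12146. Genes were named from the first kind only, each by its probeset of highest mean.

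Groups and tumor numbers came from the labels. The comparisons used limma 3.58.1 under R 4.3.3 (lmFit, then eBayes, on group means of all 12 arrays), with two-sided tests, Benjamini-Hochberg adjustment over 16573 genes and a threshold of 0.05. The p-values measure the spread between grafts. Gene lists are described by counts and medians, with no test of a list. Named genes are the 8, Vnn1, up to 4 genes of each list with the lowest adjusted p, defining neutrophil genes, the ligands of the receptors and the 5 genes most like the mean of the 8 by each measure. Other genes were chosen after their values were seen. The 8 genes and the lists were chosen with earlier results of these data known. Promoters came from RefSeq (GRCm38.p6). Alternatives were no filter or a filter at the median, the mean of probesets, centring on the median, cyclic loess, array weights, moderation with trend and robust settings, a fit of the compared groups alone, the tumor number as a block, the methods' t-test, and leaving out tumors.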

Additional observations from a re-analysis of the deposited data

Results flagged for a closer look

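In 3 of 24 groups of 4 tumors (8 genes in 3 groups), 1 tumor lay apart from the others by Dixon's test at a critical ratio of 0.829, and chance alone gives about 1 in 20. Lcn2 in VR 1 was 9.80, with a gap of 0.945 of the range of the VR tumors. Lcn2 in VdR 1 was 8.27, with a gap of 0.829 of the range of the VdR tumors, just past the critical ratio. Csf3r in VdR 4 was 7.61, with a gap of 0.847 of the range of the VdR tumors. Trem1 and the mean of the macrophage markers were also highest in VdR 4 among the VdR tumors. The causes were not tested.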

How the results depend on the processing

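Csf3r was the only neutrophil gene called between VR and R under each alternative except the methods' t-test, with 0 called, and leaving out each tumor in turn gave 1 to 1 called and a log2 difference of 0.60 to 0.93. Its adjusted p was 0.00298 to 0.0637 over all alternatives. Between VdR and R the count was 0 except with array weights, with 1, Trem1, and between VR and VdR it was 0 throughout. The sign of small differences was not stable. S100a9 in VR against R turned to 0.014 with array weights, 0.024 with cyclic loess, and to 0.017 without R 5, 0.030 without VR 2 and 0.0053 without VR 5 (range without single tumors -0.080 to 0.030). Lcn2 turned to -0.48 in VR against R and -0.70 in VR against VdR without VR 1, and to -0.39 in VdR against R without VdR 1 (ranges without single tumors -0.48 to 0.91, -0.70 to 0.93 and -0.39 to 0.49). Without both it was -0.48 for VR against R, -0.087 for VR against VdR and -0.39 for VdR against R.

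Counts over all genes moved more. With array weights 5667 genes were called for VR against R, 2595 for VdR against R and 884 for VR against VdR, against 3500, 1555 and 570. The methods' t-test called 2120, 493 and 30. Without VR 1 and VdR 1, 984 were called for VdR against R and 344 for VR against VdR. Leaving out single tumors gave 2458 to 3458 for VR against R, 961 to 1775 for VdR against R (972, 962 and 961 without R 1, R 4 and VdR 2) and 86 to 554 for VR against VdR (298, 171 and 205 without VdR 1, 4 and 5, and 151, 86 and 260 without VR 2, 4 and 5). The causes were not tested. Nothing in the labels says that a tumor number marks a shared mouse or batch. Deviations of same-numbered tumors correlated at -0.151 to 0.398, 10 of 12 pairs above 0 and 8 above 0.1, with all 3 pairs of number 2 at 0.227 or more, and 4 of 12 tumors correlated best with their own number, so no pairing was used. With the number as a replicate block, 3927, 1654 and 621 genes were called, and 1, 0 and 0 of the neutrophil genes. Signal near the low end limits S100a8, Cxcr2, Retnlg and Ngp, for which a small difference cannot be read as no change. The same holds for S100a9 and, outside VdR 4, for Trem1, which passed the filter but lay under the medians of the arrays. The filter at the median left only Csf3r of the 8, so the other genes have no value under it.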

Other observations

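Other cell types were read from lists of markers. Their counts stand beside the shares over all genes tested, 13.6% higher and 7.48% lower in VR against R, and 6.58% and 2.81% in VdR against R. Of 6 measured monocyte markers, 5 were tested, and 3 were higher in VR and 2 in VdR than in R tumors. Ccr2, the receptor by which monocytes enter tissue, was higher by 2.27 and 1.35 (limma adjusted p = 0.00149 and 0.0411), and F13a1, a coagulation factor chain of monocytes and macrophages, by 1.12 and 1.70 (limma adjusted p = 0.0325 and 0.0072). Of 11 tested markers of eosinophils, basophils and mast cells, Fcer1a, the IgE receptor chain, and Kit, the stem cell factor receptor, were raised in VR over R tumors, by 0.80 and 0.48 (limma adjusted p = 0.0302 and 0.0282), and 0 were called in VdR against R by limma, with 3 at an unadjusted p under 0.05. The mast cell protease gene Cpa3 spread widely within groups, from 7.26 to 10.92 in VR, 8.51 to 10.51 in VdR and 6.81 to 9.07 in R tumors.

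Of 5 platelet markers, Pf4, which macrophages can also transcribe, was higher by 1.30 in VR and 1.50 in VdR than in R tumors (limma adjusted p = 2.51e-04 and 1.61e-04). Of 3 erythroid markers, Alas2, the heme synthesis enzyme of red cell precursors, was higher in VR by 0.41 than in R and by 0.55 than in VdR tumors (limma adjusted p = 0.00492 and 0.0118). Of 9 endothelial markers, the receptor genes Kdr and Tek were raised in VR over R tumors, by 0.90 and 1.01 (limma adjusted p = 0.00629 and 6.69e-04). Of 11 myofibroblast markers, 6 were higher in VR and 1 in VdR than in R tumors, among them Thy1 by 0.80 in VR (limma adjusted p = 0.00142). Of 11 tested keratinocyte markers 0 were called by limma in any comparison, with 1 at an unadjusted p under 0.05 in VR against R and 0 in the other comparisons. Padi4, a neutrophil enzyme that citrullinates histones, was 5.40 to 5.51 in VR and 5.47 to 5.82 in VdR tumors and reached 7.27 in R 5, with 5.65 to 5.96 in the other R tumors.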
